A study of Mastomys natalensis with 4 samples.

Results

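The genes described here encode the enzymes that modify, conjugate or clear foreign chemicals and reactive aldehydes: alcohol, aldehyde and aldo-keto dehydrogenases and reductases (Adh, Aldh, Akr), cytochrome P450 and flavin monooxygenases (Cyp, Fmo), glutathione, glucuronic acid and sulfate transferases (Gst, Ugt, Sult), and carboxylesterases, epoxide hydrolases and quinone reductases (Ces, Ephx, Nqo). They were chosen by gene symbol alone, without the sterol synthesis enzyme Cyp51. Of 8251 genes with a probe set of a single symbol, 97 belonged, with 125 probe sets. A further 8 probe sets that carry several symbols of these families were left out and are not named.

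Total RNA of stomach mucosa was measured on Affymetrix mouse U74 arrays. The species was Mastomys natalensis, a rodent in which tumours arise from the histamine-producing enterochromaffin-like (ECL) cells. All 4 samples came from mucosa exposed to loxitidine (loxtidine), which blocks histamine H2 receptors and so acid secretion, and the labels do not say whether a sample is 1 animal or a pool. In 2 samples treatment had lasted 8 weeks and the labels name ECL cell hyperplasia; in 2 it had lasted 16 weeks and they name neoplasia. No untreated mucosa was analysed here, so the comparison is between these stages of treatment and not with normal stomach. The labels give neither age nor strain, and time on the drug and lesion stage differ together. Each sample has a lot batch of its own in the labels, so lot and sample cannot be told apart.

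Foreign compounds are usually handled in steps. Oxygenases and hydrolases first expose or add a reactive group, dehydrogenases and reductases then oxidise or reduce the alcohols, aldehydes and ketones, and transferases attach glutathione, glucuronic acid or sulfate so that the product can be exported. The gastric lining meets dietary alcohols and aldehydes before the liver does, and it is known for its own alcohol dehydrogenase, class IV Adh7. Several of the same enzymes act on the body's own molecules, among them retinol and retinal, fatty acids, steroids, bile acids and the aldehydes left by lipid peroxidation.

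Values are the authors' deposited intensities on a linear scale, and a dim signal of a mouse probe set on Mastomys RNA does not show that a transcript was absent. Values under a floor of 12.15 were set to it before log2 was taken. A probe set was tested if it lay above the floor on at least 2 arrays. Of the 97 genes 58 had such a probe set (59.8%), against 71.1% of all genes, and each is given by its brightest one. Values are given as both 8-week samples against both 16-week samples, sample 1 first. All differences are log2 differences, 16 weeks minus 8 weeks, with the standard error (SE) of limma's fit, n = 2 samples per group. Median intensities of the arrays ran from 15.4 to 17.3 at 8 weeks and from 18.9 to 19.2 at 16 weeks. The ratio of the 3′ to the 5′ control probe set of beta-actin, a sign of RNA integrity, was 1.26 and 1.16 in the 8-week samples and 1.46 and 1.63 in the 16-week ones, whereas that of Gapdh overlapped (0.71 and 0.59 against 0.89 and 0.65). The part of this difference in the values below was not tested.

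The comparison asked which enzymes differed between hyperplastic and neoplastic mucosa. Several of the brightest enzymes of the list, among them Gstp1, Adh1, Aldh3a1 and Akr1a1, were lower in both samples at 16 weeks. A set of dimmer ones, among them Cyp4a14 and Gsto1, was higher. Of all tested genes with a mean intensity over 200, 70.5% had negative differences, beside 71.4% of such enzymes. Dim genes in general lay higher, as given below. No single gene passed: limma called 0 members higher and 0 lower at a Benjamini-Hochberg adjusted p under 0.05, as it did for all 5864 tested genes (0% called in each direction), and the lowest adjusted p of a member was 0.301. At an unadjusted p under 0.05 it counted 7 members higher (12.1%, against 7.54% of all tested genes) and 3 lower (5.17%, against 5.78%). The number of higher members at that p was 2 without 8-week sample 1, and 4 if either 8-week sample 2 or 16-week sample 2 was left out. That of lower members was 2 without 8-week sample 2 or without 16-week sample 2, and 4 without either of the others. The shares of all genes with a sample left out are not given here, so those counts are not set against other genes. In 17 members both 16-week values lay above both 8-week values (29.3%, against 27.5% of all tested genes), and in 19 they lay below (32.8%, against 21.1%). Whatever the overlap, 28 members were higher and 30 lower, with a median difference of -0.11 beside 0.07 for all tested genes. That median was -0.07 without 8-week sample 1, or -0.01 if 8-week sample 2 was left out or without 16-week sample 2. Of the tested members 4 passed the filter only through their 16-week values and 3 only through their 8-week values, so these counts, in which Gstz1 and Aldh1a1 are among the 7 higher, describe the list and support nothing about it.

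**Figure D1:**
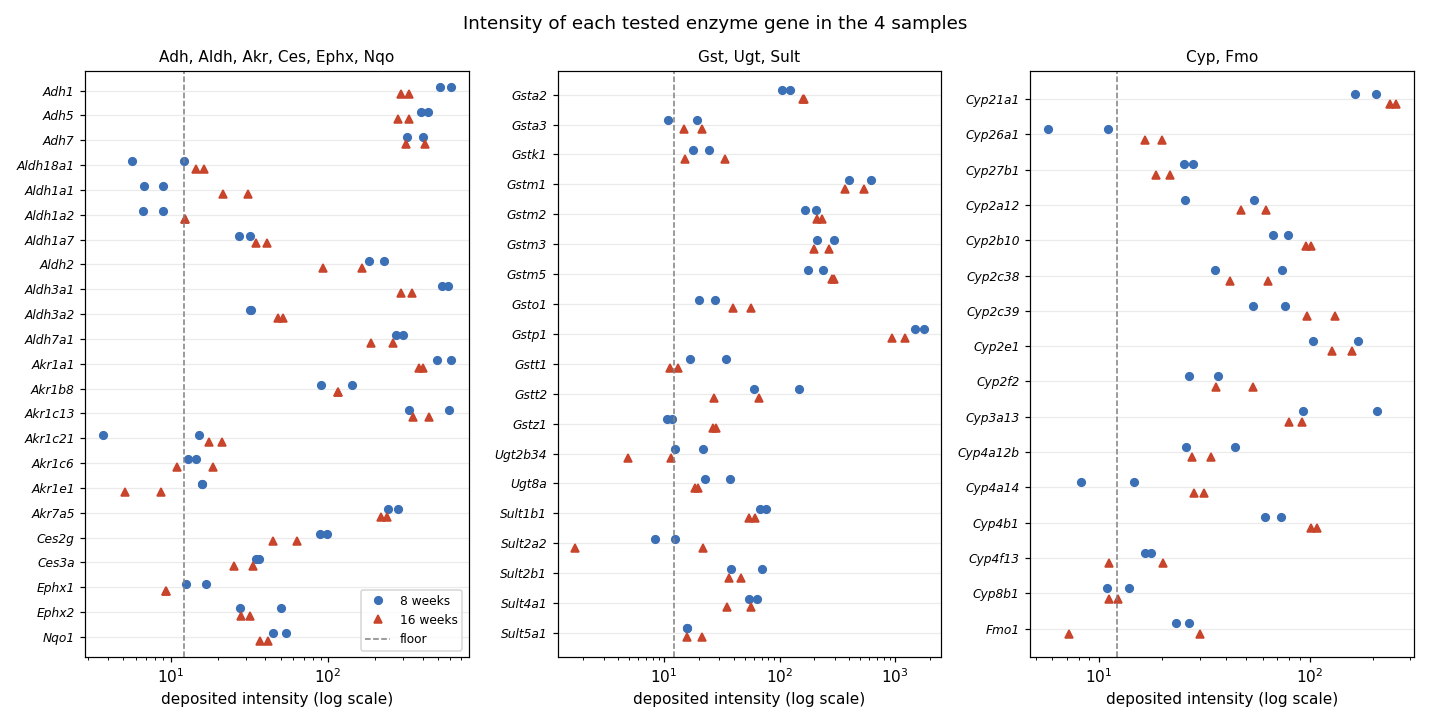
Deposited intensity, on a log axis, of the brightest tested probe set of each of the 58 tested enzyme genes; circles are the 2 samples after 8 weeks, triangles the 2 after 16 weeks, and the dashed line is the floor of 12.15. For Adh1, Aldh3a1 and Gstp1 both triangles lie below both circles, for Gstz1, Cyp4a14 and Gsto1 above, and for Adh7 the groups overlap.

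Alcohol dehydrogenases oxidise alcohols, retinol included, to aldehydes. Class I Adh1, the main ethanol dehydrogenase of liver, had 518 and 607 in the 8-week samples and 293 and 329 in the 16-week samples. The 2 stages did not overlap, and the difference was -0.85 ± 0.25 (95% confidence interval -1.48 to -0.23, limma unadjusted p = 0.0173, adjusted p = 0.325). Class III Adh5, which clears formaldehyde bound to glutathione, read 389.5 and 433 against 328 and 278 (-0.44 ± 0.25). Its second probe set read 74.2 and 56.2 against 35.5 and 30.8 (-0.97 ± 0.27), so both were lower in both 16-week samples. Adh7 is the gastric class IV enzyme. Its 8-week values were 318 and 401 and its 16-week values 311 and 413, a difference of 0.01 ± 0.28 whose interval, -0.72 to 0.73, still allows a change of either sign. With a sample left out it ran from -0.20 (without 16-week sample 2) to 0.21 (without 16-week sample 1). The liver enzyme Adh4 lay under the floor on all arrays.

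Aldehyde dehydrogenases turn aldehydes into acids. Aldh3a1, which removes aromatic aldehydes and those of lipid peroxidation and is abundant in cornea and stomach, read 527 and 580.3 against 342 and 289.9. With -0.81 ± 0.24 (interval -1.44 to -0.19, limma adjusted p = 0.326) it was lower in both later samples, about as far as Adh1. Mitochondrial Aldh2, the main enzyme for acetaldehyde, read 227 and 183 against 165 and 93.2 (-0.71 ± 0.36). Its lowest value was that of 16-week sample 2, and without that sample the difference was -0.30. Its second probe set overlapped between the stages, at 116 and 65.5 against 106 and 50.1 (-0.26 ± 0.48). Aldh7a1, an enzyme of lysine breakdown, read 271 and 302 against 259 and 187 (-0.38 ± 0.28), and -0.02 ± 0.28 on its second probe set. Without 16-week sample 2 the first of these was -0.14.

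The other Aldh genes lay the opposite way, at lower intensity. Aldh1a1, a cytosolic retinal dehydrogenase, read 9 and 6.8 at 8 weeks, both under the floor, and 21.5 and 30.8 at 16 weeks. That is at least 2.12-fold higher (1.08 ± 0.28). This gene, too, passed the filter only through its 16-week values, so no p is given for it. A second Aldh1a1 probe set was near the floor throughout, at 5 and 13 against 19.9 and 14.3 (0.42 ± 0.28). Its close relative Aldh1a7 gave 0.36 ± 0.25, from 27.2 and 32.1 against 41 and 35. Aldh3a2, the fatty aldehyde dehydrogenase of the endoplasmic reticulum, read 32.5 and 31.9 against 48.1 and 52.1 (0.64 ± 0.23, unadjusted p = 0.0400, adjusted p = 0.349 in limma), and 14.5 and 24.6 against 21.4 and 28.3 on a second probe set (0.38 ± 0.35). Aldh18a1, an enzyme of proline synthesis, read 12.2 and 5.7 against 14.5 and 16.4. Aldh1a2, the retinal dehydrogenase of mesenchyme, passed the filter at 12.3 in both 16-week samples and gave 0.02 ± 0.23. Over the 8 tested Aldh genes 5 were higher and 3 lower. The groups of all 8 did not overlap, beside 27.5% of all tested genes that were higher and 21.1% that were lower without overlap. This counts Aldh1a2, which barely passed the floor, and Aldh1a1, which had to differ to pass the filter.

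Aldo-keto reductases reduce aldehydes and ketones, sugars and steroids among them. Akr1a1, the general aldehyde reductase, read 606.5 and 494 against 402 and 377.3 (-0.49 ± 0.25), with no overlap. Akr7a5, which reduces aflatoxin and succinic semialdehyde, read 280 and 240.5 against 236 and 217 (-0.20 ± 0.24, and -0.09 without 8-week sample 1). Akr1c13 overlapped, with 590.1 in 8-week sample 1 over 327 in the other and 437 and 346 at 16 weeks, and its difference of -0.18 became 0.25 without 8-week sample 1. The remaining members were dim or flat. Akr1b8 read 143 and 90.3 against 116 and 117. Akr1c21, a hydroxysteroid dehydrogenase, read 3.7 and 15.1 against 17.4 and 21.2 (0.50 ± 0.26). Akr1e1 read 15.9 and 15.8 against 5.1 and 8.7, at least 1.31-fold lower. It passed the filter only through its 8-week values, so its sign was fixed by the filter. The median of the 7 tested Akr genes, -0.18, was 0.06 without 8-week sample 1, or -0.30 if 8-week sample 2 was left out. Of the 18 tested alcohol and aldehyde enzymes as a whole 9 were higher and 9 lower, with a median of -0.08.

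**Figure D2:**
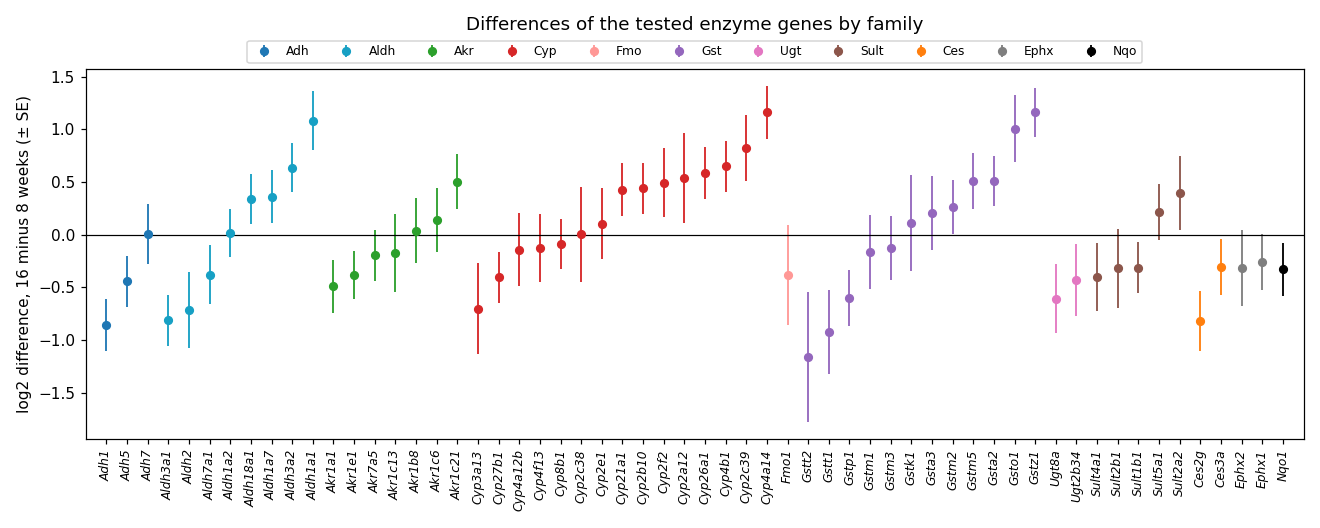
Log2 difference, 16 minus 8 weeks, of each of the 58 tested enzyme genes, coloured by family and ordered within it; bars are the SE of limma's fit with 2 samples per group. Each of the larger families runs from below to above 0, from -0.81 (Aldh3a1) to 1.08 (Aldh1a1) in Aldh and from -1.16 (Gstt2) to 1.16 (Gstz1) in Gst.

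Cytochrome P450s were the largest family, and most of its genes did not reach the filter. Of 39 genes 15 were tested, 10 of them higher and 5 lower, with a median of 0.43. That median kept its sign under quantile normalization, with the arrays on a common median and with the hybridisation controls aligned, and with any sample left out, from 0.25 without 8-week sample 1 to 0.56 without 8-week sample 2. It is a median of the genes that passed the filter, Cyp26a1 only through its 16-week values, and was 0.00 without the filter on dim probe sets. Dim genes in general lay higher, as given below. Cyp4a14, a fatty acid hydroxylase, read 8.2 and 14.6 against 28.2 and 31.4 (1.16 ± 0.25, limma unadjusted p = 0.00531, adjusted p = 0.301), with one 8-week value under the floor. Cyp4b1 oxidises medium-chain fatty acids and aromatic amines. On a probe set whose ID marks shared or reduced probes it read 61.7 and 73 against 102 and 109 (0.65 ± 0.24). Cyp4a14 and Cyp4b1 were higher in both later samples. The related Cyp4a12b overlapped, at 44.2 and 25.8 against 27.5 and 34.1.

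The Cyp2 family holds many of the drug-metabolising P450s. Cyp2c39, an enzyme that can oxidise retinoic acid, read 53.6 and 76.5 against 97.6 and 132 (0.82 ± 0.31, limma unadjusted p = 0.0450, adjusted p = 0.353). Cyp2b10, the classic phenobarbital-induced P450 of mouse liver, read 67 and 79.4 against 95.9 and 102 (0.44 ± 0.24). Their groups did not overlap, whereas those of the other Cyp2 genes did. The ethanol-oxidising Cyp2e1 read 104 and 171 against 159 and 128 (0.10 ± 0.34, interval -0.76 to 0.97), and its sign turned without 8-week sample 1 (-0.26) and without 16-week sample 1 (-0.05). Cyp2a12 read 25.7 and 54.6 against 62.4 and 47.3, Cyp2c38 35.4 and 74.3 against 63.4 and 41.7, and Cyp2f2, the naphthalene-oxidising P450 of airway, 26.6 and 36.6 against 35.8 and 53.9. The Cyp2c and Cyp2b genes are families of near-identical copies, so which member a probe set measures is uncertain.

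Only 1 member of the Cyp3a family, Cyp3a13, reached the filter. It read 208 in 8-week sample 1 and 93.5 in sample 2, against 92.1 and 80.1 at 16 weeks. The stages did not overlap, but the difference of -0.70 ± 0.43 was -0.12 without 8-week sample 1. The dioxin-inducible P450s were not measurable: Cyp1a1 read 2.2 and 3.7 against 8.7 and 18, Cyp1b1 5.2 and 4.1 against 3.2 and 15.6, and Cyp1a2 reached at most 12.5. Among P450s that act on the body's own steroids, bile acids, vitamin D and retinoic acid, 4 of 9 were tested. Cyp21a1, the steroid 21-hydroxylase of adrenal cortex, read 165 and 208 against 240 and 258 (0.43 ± 0.25, and 0.26 without 8-week sample 1) on a probe set marked as shared with other sequences. Cyp26a1, which degrades retinoic acid, read 11 and 5.7 against 16.6 and 20, at least 1.5-fold higher. It passed the filter only through its 16-week values, so its sign was fixed by the filter. Cyp27b1, which activates vitamin D, read 25.4 and 28 against 18.6 and 21.8 (-0.41 ± 0.24), and the bile acid enzyme Cyp8b1 lay at the floor. The flavin monooxygenase Fmo1 read 26.7 and 23.2 against 30 and 7.2, so its difference of -0.38 rested on 16-week sample 2 and was 0.27 without it.

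Glutathione transferases join glutathione to electrophiles. Gstp1, the pi class enzyme and the brightest gene of the list, read 1768.5 and 1496 against 1211 and 946 (-0.60 ± 0.27, limma unadjusted p = 0.0718, adjusted p = 0.385). Both later samples were lower. Other classes went the opposite way. Gstz1, the zeta class enzyme that isomerises maleylacetoacetate in tyrosine breakdown, read 11.8 and 10.5, both under the floor, against 26.3 and 28.1. That is at least 2.24-fold higher (1.16 ± 0.23). It passed the filter only through its 16-week values, and its 8-week values, both set to the floor, have no spread, so its p supports nothing and is not given. Gsto1, the omega class enzyme that also reduces dehydroascorbate and arsenic compounds, read 20 and 27.7 against 56.5 and 39.4 (a log2 difference of 1.003 ± 0.32, unadjusted p = 0.0247 in limma, adjusted p = 0.331). Gsta2 of the alpha class, whose members reduce lipid hydroperoxides, read 123 and 106 against 160.4 and 164 (0.51 ± 0.24). Groups of these genes did not overlap.

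The theta class genes Gstt1 and Gstt2, which act on halogenated small molecules, were lower with wide spread. Gstt1 read 34.4 and 16.8 against 13.2 and 11.3 (-0.92 ± 0.40). Gstt2, named after its values were seen, read 146 and 60.6 against 66.3 and 26.8 (-1.16 ± 0.62). Both were highest in 8-week sample 1, and without it the differences were -0.41 and -0.52; that of Gstt2 was -0.51 without 16-week sample 2. The mu class could not be read gene by gene. Gstm1 read 401.5 and 618.5 against 368 and 538 on its brightest probe set (-0.16 ± 0.35) and 113 and 122 against 168 and 217 on another (0.70 ± 0.26). Gstm5 gave 0.51 ± 0.27 on its brightest probe set, from 177 and 237 against 298.5 and 284, but -0.23 and -0.07 on the other two. Gstm2 and Gstm3 likewise held both signs (0.26 and -0.34, and -0.13 and 0.51). These genes are near-identical neighbours in the mouse, and 7 of their 9 tested probe sets have an ID that marks shared or reduced probes, so none of these directions can be assigned to a gene. Gsta3 and Gstk1 overlapped (0.20 ± 0.35 and 0.11 ± 0.45). Over the family 7 genes were higher and 5 lower, and its median of 0.16 was -0.13 without 8-week sample 1, 0.37 without 8-week sample 2, 0.03 without 16-week sample 1 and 0.33 without 16-week sample 2.

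**Figure D3:**
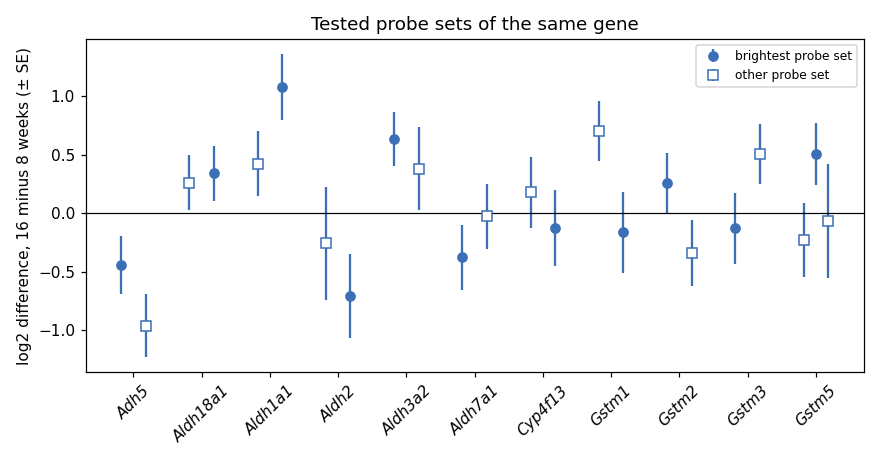
Log2 difference, 16 minus 8 weeks, of every tested probe set of the 11 enzyme genes that had more than one, with the SE of limma's fit; filled circles are the brightest probe set of the gene, open squares the others. Of these genes 6 have probe sets of one sign, the Adh and Aldh genes, and 5 have both signs, the Gstm genes and Cyp4f13.

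Glucuronosyltransferases and sulfotransferases were mostly dim. Ugt8a, which makes the galactolipids of nerve sheaths rather than conjugating drugs, read 22.5 and 37.4 against 18.4 and 19.7 (-0.61 ± 0.33, and -0.24 without 8-week sample 2). Ugt2b34 read 12.4 and 21.6 against 11.5 and 4.9, at least 1.35-fold lower, with a difference of -0.43 that was -0.03 without 8-week sample 2. Ugt2b34 passed the filter only through its 8-week values, so its sign was fixed by the filter. Sult1b1, a phenol sulfotransferase of gut, read 75.7 and 67.8 against 60.8 and 54.7 (-0.31 ± 0.24), without overlap. The cholesterol sulfotransferase Sult2b1 read 70.1 and 37.9 against 36.8 and 46.5, and its difference of -0.32 became 0.13 without 8-week sample 1. The brain form Sult4a1 read 53.9 and 63.9 against 56.6 and 34.9 (-0.40 ± 0.33), and -0.05 without 16-week sample 2. The hydroxysteroid form Sult2a2 read 8.4 and 12.5 against 1.7 and 21.7, so the later samples differed most from each other, and its difference of 0.40 was -0.02 without 16-week sample 2. The median of the 5 tested Sult genes, -0.31, was 0.13 without 8-week sample 1, -0.15 without 16-week sample 1 and -0.05 without 16-week sample 2.

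All 5 tested hydrolases and quinone reductases had negative differences, beside 2621 of all 5864 tested genes. Ephx1 passed the filter only through its 8-week values, so its sign was fixed by the filter. Carboxylesterases split ester drugs and lipids. Ces2g read 89.5 and 98.9 against 63.7 and 44.6 (-0.82 ± 0.28, limma unadjusted p = 0.0337, adjusted p = 0.343), and Ces3a 36.6 and 34.9 against 25.1 and 33.3 (-0.31 ± 0.26). Both were lower in both later samples, but the difference of Ces3a was -0.10 without 16-week sample 1. Quinone reductase Nqo1, the standard target of the oxidative stress factor Nrf2 (Nfe2l2), read 44.7 and 54.1 against 41.4 and 37.1 (-0.33 ± 0.25, and -0.19 without 8-week sample 2). Its other probe set read 2.3 and 10.2 against 18.9 and 10.7 and did not reach the filter. The IDs of both Nqo1 probe sets mark shared or reduced probes. Microsomal epoxide hydrolase Ephx1 read 16.8 and 12.6 against 9.4 and 9.4, at least 1.2-fold lower, with a difference of -0.26 that was -0.05 without 8-week sample 1. The soluble enzyme Ephx2 read 50 and 27.4 against 27.9 and 31.8, with overlap and with a difference of -0.31 that was 0.12 without 8-week sample 1. With the arrays aligned on the hybridisation controls Ces3a, Nqo1 and Ephx2 had positive differences (0.13, 0.11 and 0.12).

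The 39 genes that were not tested comprised 24 P450s, 4 sulfotransferases, 3 glutathione transferases, 3 carboxylesterases, 2 aldehyde dehydrogenases and single genes of Adh, Fmo and Ugt. Of them 22 lay under the floor on all arrays and 17 exceeded it on 1 array, up to 30.5 for Cyp2b13 in 16-week sample 2. The main liver P450s Cyp3a11, Cyp2d10 and Cyp7a1 were among those never above it, and the aldehyde-conjugating Gsta4 read 2 and 1.7 against 8.2 and 19.5.

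Brightness went with direction over the whole array. Among 511 tested genes whose mean intensity exceeded 200, 70.5% had a negative difference and the median was -0.26. Of the 14 enzymes that bright 10 were lower (71.4%), with a median of -0.19. Lower without overlap were 7 of the 14, beside 49.1% of the 511. In the dimmest of 4 equal groups of genes 66.4% of all genes were higher, and 11 of the 17 enzymes there. In the brightest group 39.2% of all genes were higher, and 10 of the 22 enzymes. At both ends the enzymes' split was near that of other genes of like brightness. In the groups between, the enzymes lay lower: 4 of 10 were higher, with a median of -0.22 beside 59.7% and 0.16 for all genes, and 3 of 9, with a median of -0.32 beside 55.9% and 0.07. These differences from other genes were not tested. Among the 14 enzymes with a mean intensity over 200, Adh5, Akr1a1, Gstp1, Aldh3a1 and Adh1 had differences of -0.44 to -0.85, whereas Adh7, Gstm1 and Akr1c13 had -0.18 to 0.01. The 4 of the 14 that were higher were Gstm5 (0.51), Cyp21a1 (0.43), Gstm2 (0.26) and Adh7 (0.01).

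**Figure D4:**
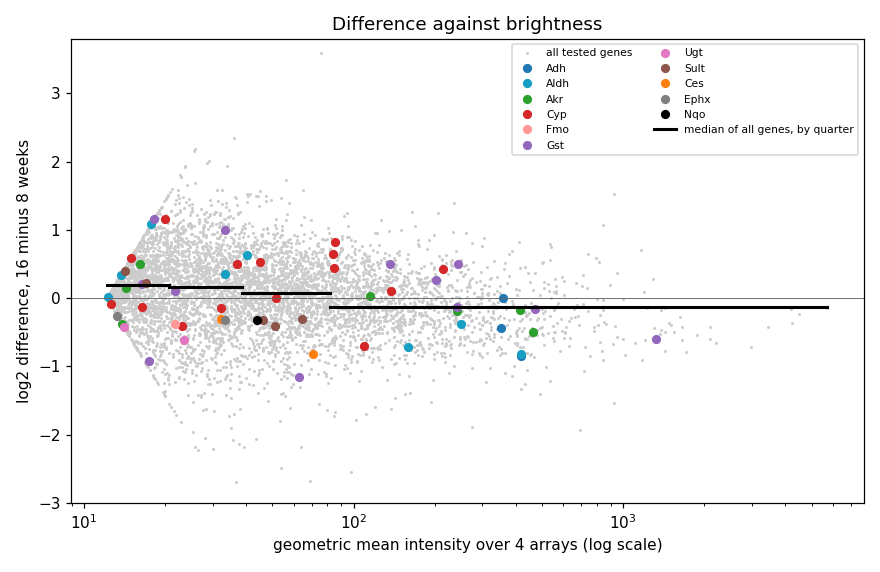
Log2 difference, 16 minus 8 weeks, against the geometric mean intensity over the 4 arrays (log axis); grey dots are all 5864 tested genes, coloured dots the enzymes by family, and black bars the median of all genes in each of 4 equal groups by brightness. The medians step from 0.19 in the dimmest group to -0.13 in the brightest, and the enzymes scatter on both sides of them.

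The scale of the arrays set the sign of small differences. All tested genes had a median of 0.07 on the deposited scale, 0.02 after quantile normalization, -0.13 with the arrays on a common median and 0.45 with the bacterial hybridisation controls aligned. The enzymes followed, with 28, 28, 22 and 44 of 58 higher. The differences of Adh1, Aldh3a1, Aldh2, Ces2g, Gstp1 and Akr1a1 were negative under each of these scales but smaller with the hybridisation controls aligned, at -0.42, -0.38, -0.28, -0.39, -0.17 and -0.06. Those of Gstz1, Cyp4a14, Aldh1a1, Gsto1, Cyp2c39, Cyp4b1 and Aldh3a2 were positive under each, and 1.38, 1.42, 1.3, 1.44, 1.26, 1.08 and 1.07 with those controls aligned. On the deposited scale Gstz1 and Aldh1a1 passed the filter only through their 16-week values, so the filter fixed their sign there. The brightest probe sets of Cyp4b1, Aldh3a2 and Aldh2 have IDs that mark shared or reduced probes. Adh7, Cyp2e1, Akr1c13 and Gstm1 changed sign under at least 1 of the scales.

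**Figure D5:**
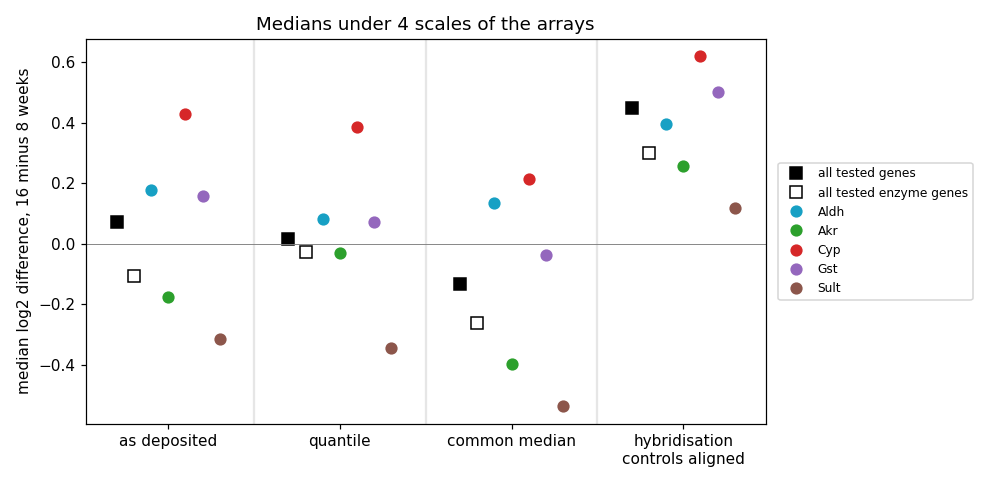
Median log2 difference, 16 minus 8 weeks, under 4 scales of the arrays, for all tested genes (filled squares), all tested enzymes (open squares) and the 5 families with at least 5 tested genes (circles). The P450 median is positive under each scale, from 0.22 to 0.62, and the Sult median is negative except with the hybridisation controls aligned (0.12).

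Single samples also stood apart. Between the 8-week samples 8.62% of tested enzymes differed over 2-fold, beside 7.78% of all tested genes. Between the 16-week samples it was 5.17%, beside 8.94%. The share of all genes that stood apart by 1.5 times is not given here, so the counts below are not set against other genes. Of the tested enzymes 5 were at least 1.5 times higher in 8-week sample 1 than in any other sample: Cyp3a13 (2.23-fold over the next), Gstt2 (2.21), Gstt1 (2.05), Ephx2 (1.57) and Sult2b1 (1.51). That sample also had the highest signal of intestinal enterocyte markers. Their summed intensity over 10 tested of 18 listed genes was 4300.4 in 8-week sample 1 and 890.1 in sample 2, against 714 and 448 at 16 weeks. Most of it in 8-week sample 1 was the apolipoprotein Apoa4 and the goblet cell peptide Tff3, while the defining markers Fabp2, Cdx1, Cdx2 and Mep1a did not reach the filter. Hepatocyte markers, 11 tested of 18, summed to 605 and 306 against 319 and 377.4. Most of the excess in 8-week sample 1 was the apolipoprotein Apoa1, at 267 there and 11.6 to 15.6 in the others. Albumin (Alb) was at 75.8 in that sample and 14.4 to 25.4 in the others. Apob and Cps1 were also highest there, whereas Fga, Hpx, Tdo2 and Ttr were lowest there, so the list did not move as a whole. The part of these cells in the enzyme values was not tested. In a whole-mucosa sample fewer cells of a type and less RNA per cell cannot be told apart. In 16-week sample 2, 4 enzymes were lowest by the same margin, Gstt2, Fmo1, Aldh2 and Sult4a1, and 1, Sult2a2, was highest; that sample had the highest sum of forestomach squamous markers, 3311 against 1655 to 2015 in the others, with 11 of 21 tested and Krt5, Krt14 and Ivl not among them. It also had the highest sum of pancreatic acinar markers, with 10 of 18 tested: 12412.7, against 8108 in the other 16-week sample and 10216.9 and 7160.2 at 8 weeks. The part of either in the enzyme values was not tested.

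Markers of the tissue's other cells differed between the stages as well. Smooth muscle markers summed to 3534 and 3059 against 1822 and 1837, with 7 of 9 tested genes lower, and fibroblast markers to 3854 and 3289 against 2533 and 2427, with 8 of 12 lower. Most of the lower fibroblast sum was 1 gene, Col3a1, at 1949 and 1280 against 586 and 509. Of the 4 fibroblast markers that were higher, Col1a2, Dcn and Postn were so in both later samples. Both sums were lower in both later samples, as were Adh1, Aldh2 and Aldh3a1, and the part of these cells in those values was not tested. Parietal cell markers overlapped, at 7568 and 9743 against 7829 and 6996. Surface and neck mucous markers summed to 9740.0 and 10052.8 against 8824 and 8260, lower in both later samples. Most of that sum was Psca and Tff1. Of 7 tested mucous genes 5 were lower, and 2, Krt20 and Ctse, were higher in both later samples. ECL and neuroendocrine markers summed to 634 and 702 against 799 and 739.5, higher in both later samples. Of 10 tested genes 6 were higher and 4 lower, Uchl1 and Chgb among the latter. The brightest, Chga, overlapped, at 141 and 242 against 299 and 231. The defining enzyme of these cells, histidine decarboxylase (Hdc), did not reach the filter.

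Genes that serve these enzymes were described by lists of 146 genes, of which 82 were tested. As with the enzymes 0 were called by limma in either direction; 37 were higher and 45 lower, with a median of -0.07 that was 0.06 without 8-week sample 2, or 0.02 if 16-week sample 2 was left out. At an unadjusted p under 0.05 there were 7 higher and 4 lower of 82, beside 7.54% and 5.78% of all tested genes. Among the 7, Xdh and Ugp2 passed the filter only through their 16-week values. Among the 4, Ptgis passed only through its 8-week values, so these counts describe the lists and support nothing about them. The 7 were 1 without 8-week sample 1, and the 4 were 2 without that sample and 6 without 16-week sample 1. In the list of glutathione and NADPH supply 7 of 11 tested genes were lower. Both subunits of glutamate-cysteine ligase, the first enzyme of glutathione synthesis, were among them: the catalytic subunit Gclc read 55.6 and 49.5 against 32.3 and 26.1 (-0.85 ± 0.25), and the modifier subunit Gclm 34.6 and 32.6 against 18.8 and 23.1 (-0.69 ± 0.25). Glutathione reductase Gsr, which recycles the oxidised form, read 30.1 and 37.1 against 76.7 and 60.8 (1.03 ± 0.27). The limma adjusted p of these 3 was 0.326, 0.349 and 0.309.

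Among other oxidases, reductases and hydrolases 11 of 25 tested genes were higher. The carbonyl reductase Cbr2 read 18 and 8.5 against 36.5 and 37.7 (1.33 ± 0.29, limma adjusted p = 0.309), xanthine dehydrogenase Xdh 9 and 3.4 against 20.5 and 18.2, at least 1.59-fold higher, and acetylcholinesterase Ache 10.8 and 13.1 against 20.3 and 22 (0.74 ± 0.23). Prostacyclin synthase Ptgis, a P450-type enzyme of vessel walls and smooth muscle, read 27.7 and 25.6 against 6.1 and 5.6, at least 2.19-fold lower. Of the other conjugating enzymes thiopurine methyltransferase Tpmt read 29.4 and 23.3 against 10.8 and 14.7 (-0.97 ± 0.27). The microsomal transferase Mgst2, named after its values were seen, read 374 and 117 against 93.3 and 51.3 (-1.60 ± 0.63, and -0.76 without 8-week sample 1). The xenobiotic receptors and regulators had a median of -0.04, with 4 of 11 higher. The oxidative stress factor Nfe2l2 read 95.7 and 157 against 90 and 135, so its samples differed within each stage more than between stages (-0.15 ± 0.37). The dioxin receptor Ahr, Keap1 and Hnf4a did not reach the filter, and the constitutive androstane receptor Nr1i3 read 86 and 76.6 against 74.1 and 83.8. The electron donor and heme list had a median of 0.12, with the heme synthesis enzyme Alas1 at 434 and 314 against 291 and 199 and heme oxygenase Hmox1 at 105 and 129 against 177 and 197 (0.69 ± 0.25). The transporters had a median of -0.14, with 5 of 11 higher.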

How the data were processed

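The deposited table holds the authors' intensity for each of 12488 probe sets in each of 4 samples, on a linear scale. Scan summary and array scaling were not given in the sources used here. Deposited values were kept on their scale. Values under the median of the arrays' 40th percentiles (12.15) were set to it, and log2 was taken. The 66 control probe sets were left out and 7883 of 12422 others tested with limma 3.58.1 (R 4.3.3; lmFit, eBayes, 2-sided, Benjamini-Hochberg over all of them). The smallest 2-sided p of an exact permutation test over 4 samples is 0.333. Whether the 2 samples of a stage are separate animals is not stated, so p-values reflect spread that may be technical. Symbols are those of the array's annotation for mouse and may be outdated. No sequence or genome was used here.

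Named were up to 12 non-overlapping members per direction by p, the 3 brightest of each family, members that differed over 4-fold within a group, and a fixed set; of the partner genes up to 4 per direction. Genes outside this rule were named after their values were seen. The members and lists were chosen with earlier results of these data known. Scripts were tested on simulated data. The alternatives tried were the scale, floor, filter, variance model, choice of probe sets, replicate block and leaving out each sample. No replicate numbers pair samples in the labels.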

Additional observations from a re-analysis of the deposited data

How the results depend on the processing

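With dim probe sets filtered out no alternative changed a call: members called higher or lower were 0 under each, and 0 with any sample left out. Without the filter on dim probe sets limma called 1 member lower (Akr1e1, -0.38), beside 7 higher and 10 lower of all 8251 genes. Both 16-week values of Akr1e1 were set to the floor and have no spread, so this call supports nothing and its p is not given. In that setting, probe sets at the floor on all arrays also have no spread and enter limma's pooled variance. With 2 samples a group, and no measure of depth but signal over the floor, a difference that was not called is not shown to be absent.

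The counts at an unadjusted p under 0.05, 7 higher and 3 lower, were 4 and 8 on a common median (3.95% and 12.7% of all genes), 13 and 0 with the hybridisation controls aligned (17.8% and 1.14%), and 4 higher with the floor at the 60th percentile (6.88%). With a sample left out they ran from 2 to 6 and from 2 to 4. Counts without overlap, 17 higher and 19 lower of 58 tested members, were 26 and 5 of 58 with the hybridisation controls aligned. With the floor at the 20th percentile 26 of 86 tested members were higher without overlap, and 11 of 38 at the 60th. The shares of all genes under these settings are not given here, so these counts are not set against other genes. With a sample left out 1 value faces 2 and groups separate more easily, so those counts are not given. The members' median of -0.11 was -0.03 (-0.027) after quantile normalization, -0.26 on a common median, 0.30 with the hybridisation controls aligned, 0.02 (0.019) and -0.17 with the floor at the 20th and 60th percentile, 0.00 without the filter, 0.01 (0.005) with the mean of probe sets, and -0.09 to -0.01 (-0.091 to -0.006) with a sample left out. The cause was not tested.

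Family medians under quantile normalization were 0.08 (0.082) for Aldh and -0.03 for Akr. On a common median they were 0.14 for Aldh (0.135), -0.40 for Akr, 0.22 for Cyp, -0.04 for Gst (-0.037) and -0.54 for Sult. With the hybridisation controls aligned they were 0.40, 0.26, 0.62, 0.50 and 0.12. The Aldh median was 0.50 and -0.38 with the floor at the 20th and 60th percentile and 0.01 (0.009) without the filter, where those of Cyp and Sult were 0.00; that of Gst was -0.06 (-0.059) without shared or reduced probe sets. With a sample left out they ran from 0.13 to 0.18 for Aldh (0.128 to 0.178), -0.30 to 0.06 (0.062) for Akr, 0.25 to 0.56 for Cyp, -0.13 to 0.37 for Gst and -0.28 to 0.13 for Sult. The partner genes' median was -0.27 on a common median, 0.34 with the hybridisation controls aligned and -0.10 to 0.06 with a sample left out. Their counts at a limma unadjusted p under 0.05 were 7 higher and 4 lower. After quantile normalization they were 3 and 7 (6.25% and 6.88% of all genes), and on a common median 3 and 15 (3.95% and 12.7%). With the hybridisation controls aligned they were 12 and 1 (17.8% and 1.14%), and with the floor at the 60th percentile 3 were higher (6.88%).

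Of the named genes Akr1c13 and Gstm1 had 0.15 and 0.12 after quantile normalization, and Adh7 and Cyp2e1 had -0.22 and -0.12 on a common median. With the hybridisation controls aligned Akr1c13 had 0.26, Akr7a5 0.24, Aldh7a1 0.06 (0.057), Ces3a 0.13, Cyp27b1 0.03 (0.029), Ephx2 0.12, Gstm1 0.27, Nqo1 0.11, Sult1b1 0.12, Sult2b1 0.12 and Sult4a1 0.03 (0.033). Gstm1 had 0.27 with the mean of probe sets, and Gstm5 -0.23 without shared or reduced probe sets. With a sample left out the differences that changed sign ran from -0.20 to 0.21 for Adh7, -0.60 to 0.25 for Akr1c13, -0.26 to 0.46 for Cyp2e1, -0.75 to 0.12 for Ephx2, -1.03 to 0.27 for Fmo1, -0.48 to 0.15 for Gstm1, -0.02 to 0.82 for Sult2a2 and -0.76 to 0.13 for Sult2b1.

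With the replicate number as a block the members at a limma unadjusted p under 0.05 were 5 higher and 5 lower, and the partner genes 2 higher. Of all genes 6.84% were higher and 5.34% lower at that p. There were 0 calls after adjustment. The numbers are not said to pair the samples, and the deviations of same-numbered samples had a correlation of -0.05 over probe sets. Named genes that did not pass the filter with the floor at the 60th percentile, or that had no probe set without shared or reduced probes, have no value there.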
